A study of Mus musculus with 16 samples.

Results

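Hox cluster genes encode the homeodomain transcription factors that give cells of the embryo their position along the body axis. They were examined here in embryonic gonads of mice. Every gene was taken whose symbol in the probe annotation is Hoxa, Hoxb, Hoxc or Hoxd followed by a number only, which gave 37 of the 19532 genes with a named probe. Of these, 34 lay above the detection limit in at least 4 of the 16 samples and were tested, among 16581 genes tested in all. The HoxA cluster gave 9 tested genes of 10, HoxB 9 of 10, HoxC 7 of 8 and HoxD 9 of 9. Hoxa13 was above the limit in 2 samples, Hoxb1 in 3 and Hoxc12 in 0, so these 3 genes were not tested. Hoxc11 was not analysed here.

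In mammals the Hox genes lie in 4 clusters on different chromosomes, and genes at matching places in the clusters share a paralogue number. Low numbers lie at the 3′ end of a cluster and are switched on early and far forward in the body, while high numbers are switched on later and further back. In the urogenital system the high-numbered genes pattern the Müllerian and Wolffian ducts and their derivatives. HOX proteins bind DNA together with PBX, MEIS and PKNOX partners, Polycomb complexes hold the clusters silent, and the Trithorax group keeps them active.

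RNA was measured on Agilent arrays from gonads of female and male embryos that were heterozygous (Nanos3+/-) or knockout (Nanos3-/-) for Nanos3, which encodes an RNA-binding protein that germ cells need to survive. The heterozygous controls carry a mutant Nanos3 allele as well, and wild-type embryos, the strain and the removal of the mesonephros are not given in the sources used here. Sex and genotype give 4 groups (Nanos3+/- females, Nanos3-/- females, Nanos3+/- males and Nanos3-/- males), and each had 1 sample at each of embryonic days (E) 12.5, 13.5, 14.5 and 15.5. The titles name replicates 1 and 2 together for every sample, and the 4 days were used as replicates of a group. The p-values for the knockout and the sexes therefore measure how the matched-day differences vary between days. Those for slopes measure the scatter of the days about a straight line. The spread between embryos of the same day is not seen.

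A value below is a log2 ratio to the gene's own mean over the 16 samples, so it can be compared between samples but not between genes. The number of probes at the detection limit ranged from 1554 to 11174 per sample and followed the day. It was 1554 to 7954 at E12.5 and E13.5 and 8298 to 11174 at E14.5 and E15.5. Xist, which is transcribed from the inactive X chromosome, read 3.48 to 4.73 in the female samples and -4.74 to -2.43 in the male ones. That follows the titles, although a description field names male gonads for the female samples as well. Nanos3 itself fell by 2.55 ± 0.41 in male knockouts (SE, n = 4 days, adjusted p = 0.00363), to -1.12 to -0.38 from 0.51 to 3.08. In females the Nanos3 ranges overlapped, at -0.91 to -0.26 in knockouts and -1.23 to 0.62 in heterozygotes, and where the probe lies relative to the deletion is not given. The mean level of 12 germ cell markers separated the genotypes without overlap, at 2.35 to 3.98 in heterozygotes and -4.17 to -2.62 in knockouts.

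Promoters are shown for 6 members on which the results turn: 3 HoxD genes that were higher in males, 2 HoxA genes that were higher in females, and Hoxd1, which was at the limit in every female knockout sample. Each is the 250 bases before a RefSeq transcript start on the mouse build GRCm38.p6, written 5′ to 3′ on the gene's strand, with matches to the searched motifs in capitals. The windows are chr2:74704365-74704614 (+) for Hoxd8, chr2:74697513-74697762 (+) for Hoxd9, chr2:74691641-74691890 (+) for Hoxd10, chr6:52164832-52165081 (-) for Hoxa2, chr6:52204588-52204837 (-) for Hoxa5 and chr2:74762730-74762979 (+) for Hoxd1. The Hoxd10 window belongs to a transcript start 7618 bases from the gene's own start, and the other 5 lie at the gene's start.
Hoxd8: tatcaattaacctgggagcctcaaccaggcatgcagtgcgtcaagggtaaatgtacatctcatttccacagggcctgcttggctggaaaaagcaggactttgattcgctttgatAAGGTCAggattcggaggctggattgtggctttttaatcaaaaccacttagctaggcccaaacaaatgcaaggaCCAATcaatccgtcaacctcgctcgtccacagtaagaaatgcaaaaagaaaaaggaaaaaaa
Hoxd9: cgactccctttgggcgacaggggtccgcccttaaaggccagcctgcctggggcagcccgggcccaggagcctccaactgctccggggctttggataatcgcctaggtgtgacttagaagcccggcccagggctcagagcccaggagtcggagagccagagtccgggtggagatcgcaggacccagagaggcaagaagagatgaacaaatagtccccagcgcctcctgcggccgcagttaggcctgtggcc
Hoxd10: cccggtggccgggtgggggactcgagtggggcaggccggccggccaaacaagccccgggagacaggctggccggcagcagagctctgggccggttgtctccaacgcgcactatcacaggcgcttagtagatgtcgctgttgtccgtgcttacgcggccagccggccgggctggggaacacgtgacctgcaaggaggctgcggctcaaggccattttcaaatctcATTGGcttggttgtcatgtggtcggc
Hoxa2: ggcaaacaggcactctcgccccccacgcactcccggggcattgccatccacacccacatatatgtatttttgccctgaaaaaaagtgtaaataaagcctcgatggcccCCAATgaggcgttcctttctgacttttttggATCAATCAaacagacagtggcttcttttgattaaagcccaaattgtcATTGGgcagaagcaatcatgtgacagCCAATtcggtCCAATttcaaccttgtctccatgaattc
Hoxa5: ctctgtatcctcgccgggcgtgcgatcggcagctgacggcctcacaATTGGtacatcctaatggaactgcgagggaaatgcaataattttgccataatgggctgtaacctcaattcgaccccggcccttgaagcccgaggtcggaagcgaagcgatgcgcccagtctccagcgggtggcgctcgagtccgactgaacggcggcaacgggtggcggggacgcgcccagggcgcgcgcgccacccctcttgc
Hoxd1: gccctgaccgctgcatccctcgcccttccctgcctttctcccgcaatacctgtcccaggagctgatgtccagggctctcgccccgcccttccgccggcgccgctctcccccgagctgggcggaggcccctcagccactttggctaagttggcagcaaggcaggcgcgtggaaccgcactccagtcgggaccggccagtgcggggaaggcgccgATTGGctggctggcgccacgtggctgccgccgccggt

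Motifs were searched on both strands: the TATA box TATAAA, the CCAAT box CCAAT, the HOX-PBX site TGATTNAT, the NR5A1 site AAGGTCA, the GATA site AGATAA and the SOX site AACAAT. The Hoxa2 window held 4 CCAAT boxes and 1 HOX-PBX site, which overlaps no other match, and a HOX-PBX site was found in 2.82% of 32851 RefSeq promoter windows of this length. Hoxd8 held 1 CCAAT box and 1 NR5A1 site, the latter found in 4.08% of windows. NR5A1 is the nuclear receptor that drives the steroid-producing lineages of the gonad. Hoxd10, Hoxa5 and Hoxd1 each held 1 CCAAT box, found in 33.8% of windows, and Hoxd9 held no match. The counts of CpG dinucleotides were 6 in Hoxd8, 13 in Hoxd9, 20 in Hoxd10, 6 in Hoxa2, 28 in Hoxa5 and 24 in Hoxd1, beside a median of 6 over all windows and 12.5 over the 24 windows of the 22 members that matched. A match is a description of the letters and shows no binding.

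The sexes were compared on matched days, separately in each genotype. Of the 25 tested genes of the HoxA, HoxB and HoxC clusters, 9 were lower in heterozygous males than in females and 1 was higher, and 11 were lower in knockout males. Hoxd8, Hoxd9 and Hoxd10 were higher in males of both genotypes. In heterozygotes 10 of the 34 Hox genes were lower in males and 4 were higher, while 12.1% of all genes tested were lower and 11.7% higher (23.8% called). In knockouts, where germ cell markers were low, 11 were lower and 4 higher, against 9.05% lower and 8.99% higher of all genes (18% called). The same 9 lower genes (Hoxa2, Hoxa4, Hoxa5, Hoxa9, Hoxb2, Hoxb3, Hoxb5, Hoxc5 and Hoxc8) and the same 3 higher genes passed in both genotypes. Of all 16581 genes, 991 were lower and 1028 higher in males of both genotypes. In a whole organ fewer cells of a type and less RNA per cell cannot be told apart.

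All 11 genes lower in knockout males belonged to HoxA, HoxB or HoxC, and all 4 higher ones to HoxD. The median male minus female difference was -0.48 in HoxA, -0.06 in HoxB, -0.42 in HoxC and 0.53 in HoxD among heterozygotes. Among knockouts it was -0.72, -0.66, -0.32 and 0.78 in the same order. Over all genes tested the median was 0.04 in heterozygotes and 0.03 in knockouts. Without overlap between the sexes over all 4 days were 6 of 34 members in heterozygotes (15.9% of all genes) and 13 of 34 in knockouts (19.9% of all genes). The calls came from limma's moderated test with Benjamini-Hochberg adjustment over all 16581 genes. Leaving out 1 day gave 8 to 15 calls in heterozygotes, the lowest without E14.5 (8.76% of all genes), and 11 to 15 in knockouts. A fit without the day as a block gave 8 calls in heterozygotes (16.1% of all genes).

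**Figure D1:**
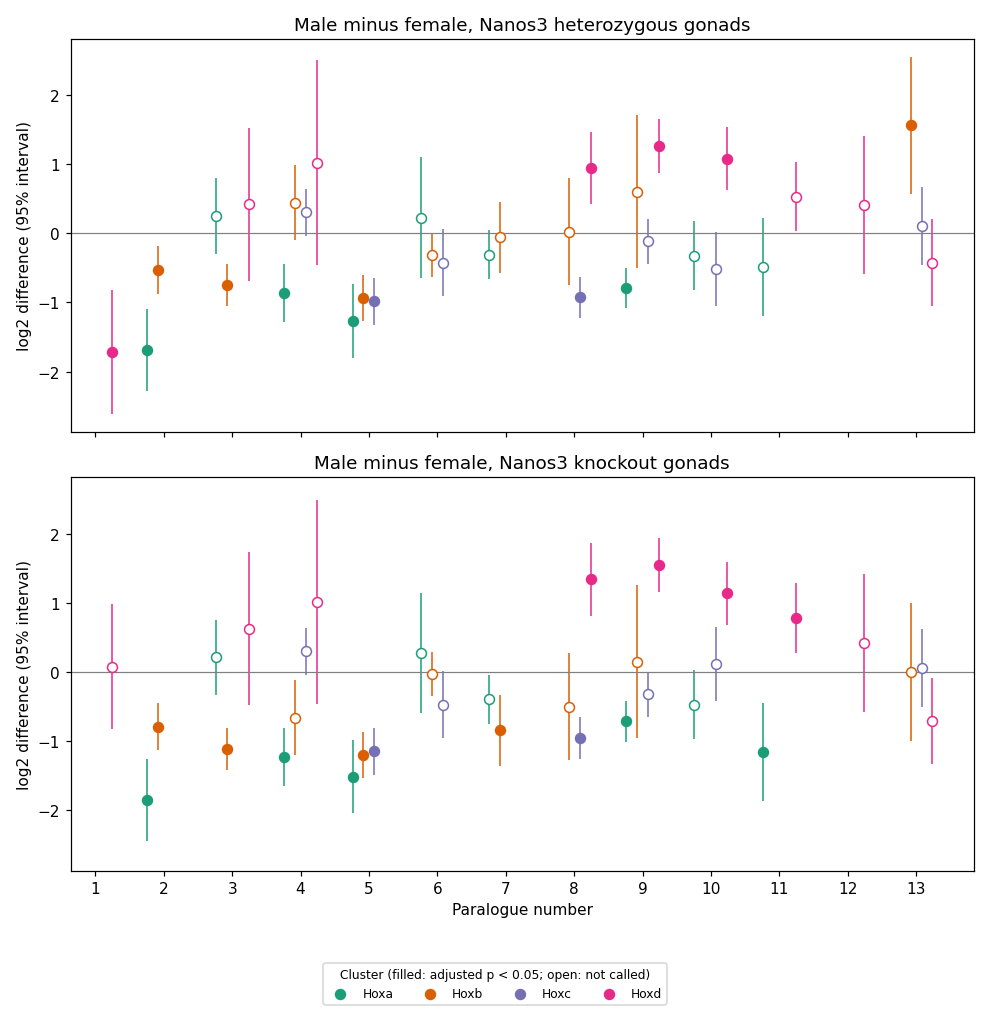
Male minus female difference of each tested Hox gene in heterozygous (upper) and knockout (lower) gonads, as log2 with its 95% interval over 4 days, by paralogue number and coloured by cluster; filled points passed the test. Hoxd9 stood at 1.26 and 1.55 and Hoxa2 at -1.69 and -1.85 in the upper and lower panel.

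Hoxd9, a HoxD gene that helps to pattern the hind part of the trunk and the limbs, showed the clearest excess in males. Its values on the 4 days were -0.37, -1.16, -1.16 and -0.67 in heterozygous females and 0.50, 0.42, 0.09 and 0.66 in heterozygous males. In the knockouts they were -0.05, -0.70, -0.77 and -0.73 in females and 0.95, 0.93, 1.0 and 1.05 in males. Every male sample lay above every female sample, in both genotypes. The difference was 1.26 ± 0.17 (SE, n = 4 days, adjusted p = 0.00133) in heterozygotes and 1.55 ± 0.17 (SE, n = 4 days, adjusted p = 0.000327) in knockouts. A further Hoxd9 probe gave 1.09 and 1.34.

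Hoxd8 and Hoxd10 lie on either side of Hoxd9 in the cluster. Hoxd8 read -0.40, -0.96, -0.66 and -0.48 in heterozygous females and 0.01, 0.17, 0.44 and 0.66 in heterozygous males. Its knockout values were -0.19, -0.63, -0.58 and -0.67 in females and 0.42, 0.63, 1.08 and 1.16 in males. The sexes did not overlap in either genotype, with differences of 0.95 ± 0.23 (SE, n = 4 days, adjusted p = 0.0184) in heterozygotes and 1.34 ± 0.23 (SE, n = 4 days, adjusted p = 0.00391) in knockouts. Leaving out E13.5, E14.5 or E15.5 ended the Hoxd8 call in heterozygotes and did not end it in knockouts.

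Hoxd10, which in mice acts in the lumbar spinal cord and the hindlimb, read -0.54, -1.77, -0.42 and -0.35 in heterozygous females and 0.09, 0.07, 0.48 and 0.60 in heterozygous males. In the knockouts its values were -0.48, -0.91, 0.01 and 0.02 in females and 0.38, 0.58, 1.16 and 1.07 in males. Again every male sample exceeded every female sample of its genotype, and the difference was 1.08 ± 0.20 (SE, n = 4 days, adjusted p = 0.00559) in heterozygotes and 1.14 ± 0.20 (SE, n = 4 days, adjusted p = 0.00428) in knockouts. Hoxd11, which shapes the forearm and the kidney together with Hoxa11, was called in knockouts, at 0.78 ± 0.22 (SE, n = 4 days, adjusted p = 0.0401). Its heterozygous difference was 0.53 ± 0.22 (SE, n = 4 days, adjusted p = 0.116), and leaving out any single day ended the knockout call. Hoxd12 (0.41 and 0.42) and Hoxd13 (-0.42 and -0.71), the last genes of the cluster, which act in digits and external genitalia, were not called in either genotype. Hoxd3 (0.42 and 0.63) and Hoxd4 (1.02 and 1.01), at the other end, were not called either.

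Hoxa2, the selector gene of the second pharyngeal arch, was the member lower in males by the most in knockouts. It read 0.57, 0.24, 0.54 and 0.70 in heterozygous females and -0.36, -0.90, -1.87 and -1.58 in heterozygous males. Knockout values were 1.69, 1.54, 0.93 and 0.88 in females and 0.34, -0.41, -0.95 and -1.35 in males. Male values lay below all female values of the same genotype, and the difference was -1.69 ± 0.26 (SE, n = 4 days, adjusted p = 0.00223) in heterozygotes and -1.85 ± 0.26 (SE, n = 4 days, adjusted p = 0.00114) in knockouts.

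Hoxa5, which in mice is needed for lung and neck structures, read 1.04, -0.59, 0.39 and 0.18 in heterozygous females and -0.56, -1.44, -0.78 and -1.25 in heterozygous males. The knockout females gave 2.53, 0.63, 0.71 and 0.66 and the knockout males 0.12, -0.72, -0.10 and -0.83. The E13.5 heterozygous female lay just below the E12.5 heterozygous male, and the knockout sexes did not overlap. The differences were -1.26 ± 0.24 (SE, n = 4 days, adjusted p = 0.00567) and -1.52 ± 0.24 (SE, n = 4 days, adjusted p = 0.00214), and the heterozygous call was lost without the day as a block.

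Hoxa4, a patterning gene of the neck vertebrae, gave 0.02, 0.10, 0.25 and 1.31 in heterozygous females and -0.39, -0.88, -0.57 and 0.10 in heterozygous males. For the knockouts the values were 1.39, 0.58, 0.18 and 0.34 in females and -0.11, -0.42, -0.63 and -1.28 in males. The heterozygous ranges overlapped, through the E15.5 male, and the knockout ranges were apart. Differences were -0.86 ± 0.19 (SE, n = 4 days, adjusted p = 0.0108) in heterozygotes and -1.23 ± 0.19 (SE, n = 4 days, adjusted p = 0.00175) in knockouts. Leaving out any day after E12.5, the mean of all probes, or a fit without the day as a block ended the heterozygous call.

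Among the HoxA genes with high numbers, Hoxa9, the oviduct gene of the Müllerian series, differed between males and females by -0.79 ± 0.13 (SE, n = 4 days, adjusted p = 0.00295) in heterozygotes and -0.72 ± 0.13 (SE, n = 4 days, adjusted p = 0.00463) in knockouts. Hoxa10, which patterns the uterus, was not called (-0.32 and -0.47). Hoxa11, needed in mice for the uterus and the kidney, read -0.55, 1.34, 1.06 and 1.27 in knockout females and -0.77, -0.46, -0.50 and 0.22 in knockout males. Its heterozygous values were 0.57, -0.74, 0.06 and 0.27 in females and 0.72, -0.64, -0.85 and -1.0 in males. The 3 later knockout females stood above all knockout males, and the E12.5 female did not. The knockout difference was -1.16 ± 0.32 (SE, n = 4 days, adjusted p = 0.0319) and was lost when E13.5, E14.5 or E15.5 was left out, while the heterozygous one, -0.48, was not called.

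From HoxB, Hoxb5, which acts in the vagal neural crest and the trunk, read 0.38, -0.36, 0.28 and 0.16 in heterozygous females and -0.46, -0.94, -0.77 and -1.11 in heterozygous males. The knockouts gave 1.27, 0.86, 1.02 and 0.67 in females and 0.15, -0.34, -0.19 and -0.63 in males. No male sample reached a female sample of its genotype. The differences were -0.93 ± 0.15 (SE, n = 4 days, adjusted p = 0.00241) and -1.21 ± 0.15 (SE, n = 4 days, adjusted p = 0.000522), and no alternative setting or left-out day ended either call.

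Hoxb3, a hindbrain and neck gene, read 0.69, 0.33, -0.21 and -0.43 in heterozygous females and 0.02, -0.26, -1.20 and -1.15 in heterozygous males. In knockouts it read 1.83, 1.46, 0.13 and -0.10 in females and 0.56, 0.24, -0.79 and -1.12 in males. On each day the male sample was lower, but the ranges overlapped, and the later samples were lower than the earlier ones in every group. The matched-day differences were -0.75 ± 0.14 (SE, n = 4 days, adjusted p = 0.00482) and -1.11 ± 0.14 (SE, n = 4 days, adjusted p = 0.000521), and both calls were lost without the day as a block. A further Hoxb3 probe gave -1.19 and -0.75. Hoxb2 was lower by a smaller amount (-0.53 and -0.79), and Hoxb7 passed in knockouts (-0.85, adjusted p = 0.0295). The heterozygous Hoxb2 call was lost with any single day left out and under 3 settings, and the Hoxb7 call with any day after E12.5 left out and under 3 settings.

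In the HoxC cluster, Hoxc5 read 0.79, 0.61, -0.22 and 0.28 in heterozygous females and -0.12, -0.22, -1.26 and -0.87 in heterozygous males. Its knockout values were 1.64, 0.83, 0.23 and 0.10 in females and 0.05, -0.33, -0.65 and -0.89 in males. Each male sample lay below the female sample of its day and genotype. The differences were -0.98 ± 0.15 (SE, n = 4 days, adjusted p = 0.0021) and -1.15 ± 0.15 (SE, n = 4 days, adjusted p = 0.000732), and the heterozygous call was lost without the day as a block. Hoxc8, a thoracic gene, was lower by a similar amount (-0.93 and -0.96, adjusted p = 0.00165 and 0.00113), and none of the alternatives or left-out days ended its calls. Hoxc4, Hoxc6, Hoxc9, Hoxc10 and Hoxc13 were not called in either genotype.

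**Figure D2:**
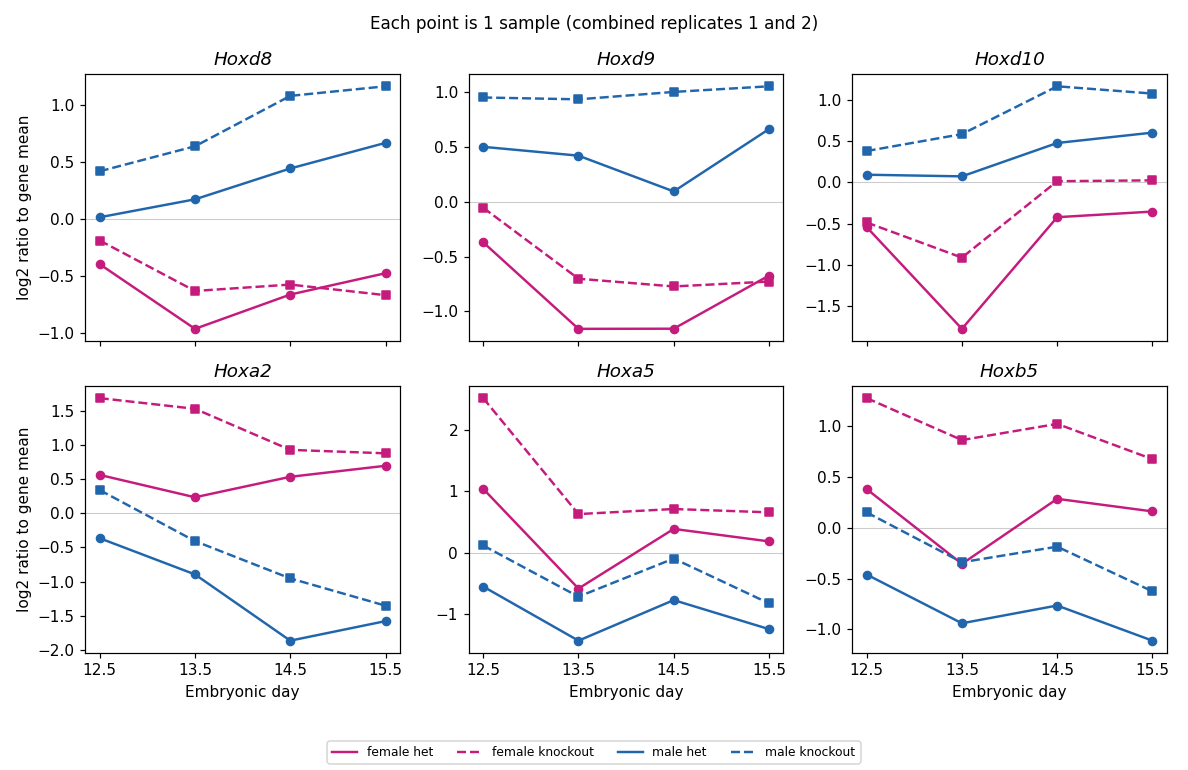
Values of 6 Hox genes in each sample, as the log2 ratio to the gene's own mean, against embryonic day for the 4 groups. Hoxd8, Hoxd9 and Hoxd10 of males lie above those of females of the same genotype on every day, and Hoxa2, Hoxa5 and Hoxb5 of males lie below.

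Cell type markers differed between the sexes beside the Hox genes, those of the supporting and steroid-producing cells among them. Of 10 pre-granulosa markers 9 were lower in males in each genotype (median -2.69 and -2.73), with mean levels of 1.12 to 1.84 in females and -1.86 to -0.76 in males. Sertoli cell markers were higher in males for 9 of 12 in heterozygotes and 10 of 12 in knockouts, and all 5 tested Leydig cell markers were higher in both. Red blood cell markers were lower in knockout males for 3 of 8 (median -2.19) and in heterozygous males for 0 of 8. Of 11 markers of the mesonephric duct and tubules, 8 were tested and 5 were lower in males in each genotype: Calb1 (-6.73 and -6.67), Gata3 (-2.81 and -1.93), Cdh16 (-2.51 and -2.56), Emx2 (-2.39 and -2.09) and Pax8 (-1.11 and -2.09). Pax2 (0.06 and 0.29), Wnt9b (-0.49 and -0.01) and Lhx1 (1.09 and 0.14) were not called, and none of the 8 was at the limit in any sample. The mean level of the 8 ranged from 0.69 to 1.39 over the female samples and from -1.48 to -0.14 over the male ones. The list of Müllerian duct markers shares Emx2, Lhx1 and Pax2 with the mesonephric one and Wnt4 with the pre-granulosa one. Of its 7 markers 4 were lower in males in each genotype, with mean levels of 0.19 to 0.72 in females and -0.83 to -0.05 in males. Interstitial mesenchyme markers went the other way, with 7 of 11 higher in heterozygous males and 8 of 11 in knockout males, including the Hedgehog targets Hhip (3.50 and 2.66) and Gli1 (2.89 and 3.02). The mean level of those 11 was -1.01 to -0.29 in females and -0.08 to 1.26 in males. The part of these cell types in the Hox differences was not tested.

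DNA-binding partners of HOX proteins also differed between the sexes, with 2 of 8 tested lower in males and 1 higher in each genotype. Pbx3 was lower (-1.63 and -1.20), as was Meis3 (-0.89 and -0.70), and Pknox2 was higher (0.91 and 0.86). Of 5 tested regulators that act upstream of Hox genes, 4 were lower and 1 was higher in heterozygous males, and 1 was higher in knockout males. Of all genes 23.8% were called in heterozygotes and 18% in knockouts. The 4 lower ones include Cdx2, which was at the limit in 12 samples and passed the filter through the heterozygotes, so no test is read for it. Egr2, which activates Hoxa2 and Hoxb2 in the hindbrain, was the higher gene (0.69 and 1.08). Of 20 tested chromatin regulators of the clusters, 1 was lower in heterozygous males and 2 in knockout males, among them the X-linked histone demethylase gene Kdm6a in heterozygotes (-1.21). Genes that flank the clusters were tested for 11 of a list of 18, with 2 higher in heterozygous males and 1 lower in knockout males. The HoxD cluster is flanked by Evx2 and Lnpk on the Hoxd13 side and by Mtx2 on the Hoxd1 side. Evx2 read 1.07 and 1.30 for male minus female, Lnpk -0.58 and 0.28 and Mtx2 0.17 and 0.79, none of them called.

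The loss of Nanos3 was compared with the heterozygous state on matched days within each sex. Relative to heterozygotes of their sex, 11 of the 34 Hox genes were higher and 1 was lower in knockout females, while 20.9% of all genes were higher and 12.9% lower (33.8% called). In knockout males 10 were higher and 1 lower, against 21.7% higher and 12.6% lower of all genes (34.3% called). These shares of the Hox genes called, 35.3% and 32.4%, were near those of all genes. Hoxa2, Hoxa5, Hoxb5, Hoxc6 and Hoxd10 were higher in both sexes, which is 5 of 34 Hox genes beside 2195 of all 16581 genes. The comparisons of the 2 sexes share no samples, but they share 1 estimate of the spread per gene.

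The median Hox difference was 0.34 in females and 0.31 in males, and the median over all genes tested was 0.11 and 0.12. The number of calls depended on how arrays were brought to a common scale. With the arrays as deposited, the median over all genes was 0.00 and 0.01, the median Hox difference 0.22 and 0.19, and the calls were Hoxb5 (higher) and Hoxd1 (lower) in females and Hoxb13 (lower) in males. The share of higher genes among all genes called was 61.8% in females and 63.3% in males on the common scale, and 21% and 16.6% as deposited. Leaving out 1 day gave 1 to 15 calls in females and 0 to 10 in males. The lowest counts came without E13.5 in females, and without E14.5 (0 calls) or E13.5 (2 calls) in males. Of all genes 9.35%, 9.46% and 13.3% were called there. Without the day as a block 3 calls were left in females and 1 in males, beside 6.9% and 6.25% of all genes.

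**Figure D3:**
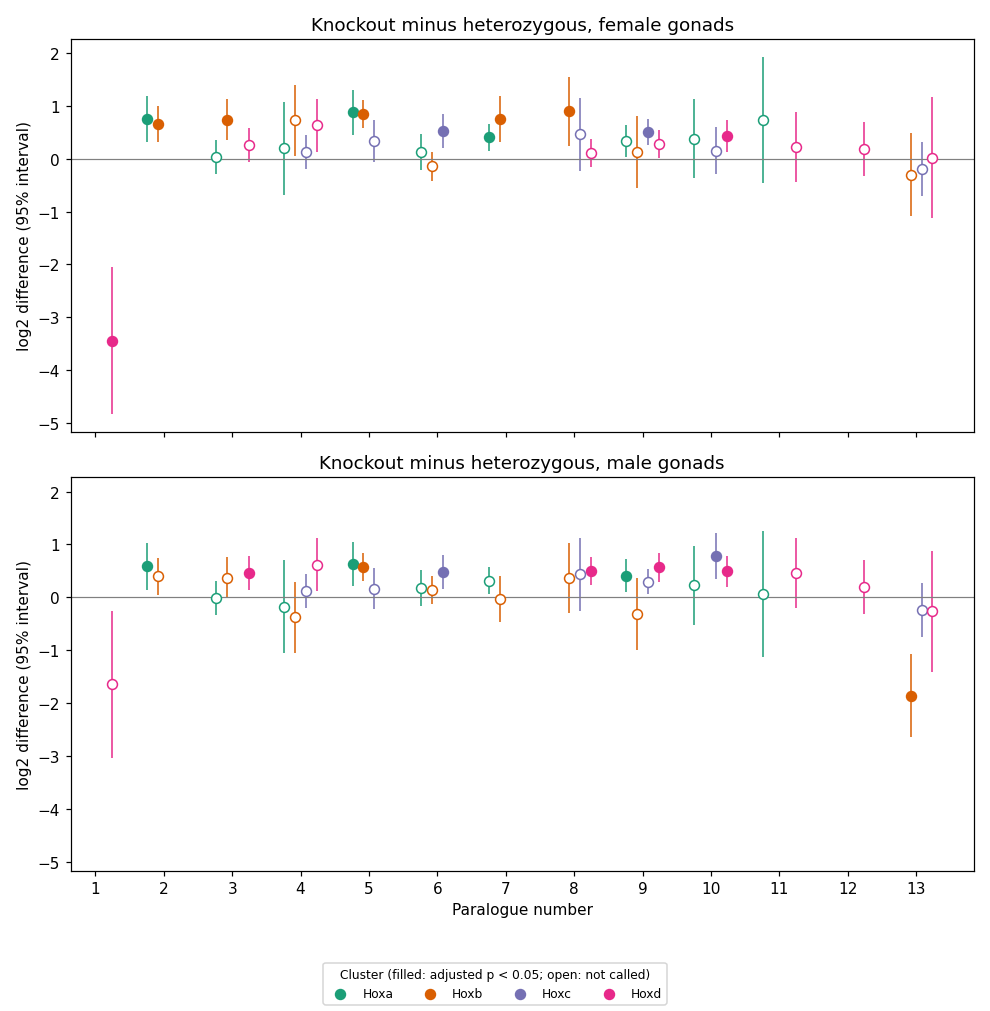
Knockout minus heterozygous difference of each tested Hox gene in female (upper) and male (lower) gonads, as log2 with its 95% interval over 4 days, by paralogue number and coloured by cluster; filled points passed the test. Most points lie between 0 and 1, Hoxd1 lies at -3.44 in the upper panel and Hoxb13 at -1.86 in the lower one.

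Hoxb5 was higher in knockouts by 0.84 ± 0.12 (SE, n = 4 days, adjusted p = 0.00203) in females and by 0.57 ± 0.12 (SE, n = 4 days, adjusted p = 0.00805) in males. The female call held under every alternative, the arrays as deposited and each left-out day included, and the male call was lost with the arrays as deposited, without the day as a block and without E14.5. Per day, the female differences were 0.89, 1.22, 0.74 and 0.51. Hoxa5 differed by 0.88 ± 0.18 (SE, n = 4 days, adjusted p = 0.0088) in females and 0.62 ± 0.18 (SE, n = 4 days, adjusted p = 0.0301) in males, and its E12.5 female knockout value of 2.53 stood above all others. Hoxa2 differed by 0.75 ± 0.19 (SE, n = 4 days, adjusted p = 0.0182) in females and 0.58 ± 0.19 (SE, n = 4 days, adjusted p = 0.0448) in males. These Hoxa5 and Hoxa2 calls were lost with the arrays as deposited, among other settings. In males each was lost under 5 of 11 alternatives and with 3 of the 4 days left out in turn. In females each was lost under 3 of 11 alternatives, Hoxa2 also with 3 of the 4 days left out and Hoxa5 with 1.

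In females the other higher members were Hoxa7 (0.40), Hoxb2 (0.66), Hoxb3 (0.73), Hoxb7 (0.75), Hoxb8 (0.90), Hoxc6 (0.53), Hoxc9 (0.50) and Hoxd10 (0.43). For Hoxb3 a further probe gave 0.11, and the mean of its probes gave 0.42 and no call (adjusted p = 0.0544). In males they were Hoxa9 (0.41), Hoxc6 (0.48), Hoxc10 (0.78), Hoxd3 (0.46), Hoxd8 (0.50), Hoxd9 (0.57) and Hoxd10 (0.49). Hoxc10, a gene of the lumbar segments, had the largest of the male increases (adjusted p = 0.0164), and its groups did not overlap. A further Hoxc10 probe gave 0.43. The Hoxc10 call was lost with the mean of all probes, with the arrays as deposited, without the day as a block, and without E13.5 or E14.5. Hoxb8, which was at the limit in 7 samples, lost its call under 7 of 11 alternatives. Of the 11 female calls, 10 are HoxA to HoxC genes, and 4 of the 10 male calls are HoxD genes. Among the 34 genes tested, 25 are HoxA to HoxC genes and 9 are HoxD genes. The knockout effect was also compared between the sexes, where 0 of 34 Hox genes passed (0.874% of all genes did) and 5 had an unadjusted p under 0.05 in limma.

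Hoxd1, a gene at the 3′ end of HoxD that in mice is known for its role in sensory neurons for pain, was lower in the absence of Nanos3. It read 0.31, 2.73, 2.81 and 2.68 in heterozygous females, and all 4 female knockouts were at the detection limit of -1.31. In heterozygous males it was at the limit at E12.5 and then read 0.09, 1.23 and 1.65, while 3 of the 4 male knockouts were at the limit and the E15.5 sample read -1.0. Females of the heterozygous genotype were above the knockouts on every day, and from E13.5 by the most. Hoxd1 was at the limit in 8 samples, 4 of them female knockouts and 3 male knockouts, and passed the filter through the heterozygotes. Its differences are therefore given as values, and no test is read from them. The female knockout difference was -3.44, which is at least 10.9-fold because the knockouts are bounded by the limit. In males it was -1.65, and the difference between the sexes' effects was 1.79. Male minus female in heterozygotes was -1.72. Hoxd1 is 1 of the 12 members counted as called for the knockout in females and 1 of the 14 for the sexes in heterozygotes.

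Hoxb13, at the 5′ end of HoxB and known for its roles in the tail bud and the prostate, was above the limit mainly in heterozygous males. It was above it in 6 samples, 4 of them heterozygous males, and passed the filter through that group, so its differences from that group are given as values and no test is read from them. It read 0.01, 1.54, 1.92 and 1.83 there, and all 4 male knockouts were at the limit of -0.54. Heterozygous females read 0.35 at E12.5 and -0.23 at E13.5 and were at the limit on the later days, as were all 4 female knockouts. Male heterozygotes therefore rose clear of every other sample from E13.5. The male knockout difference was -1.86 on the log2 scale, which is at least 3.64-fold lower. In females the difference was -0.30, and male minus female in heterozygotes was 1.56. Hoxb13 is 1 of the 11 members counted as called for the knockout in males and 1 of the 14 for the sexes in heterozygotes.

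Samples at the limit have no measured spread, so no standard error is given for Hoxd1 and Hoxb13. Germ cell markers moved in the same direction, with 11 of 12 lower in knockout females and 12 of 12 in knockout males, and the part of germ cells in the changes of Hoxd1 and Hoxb13 was not tested.

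**Figure D4:**
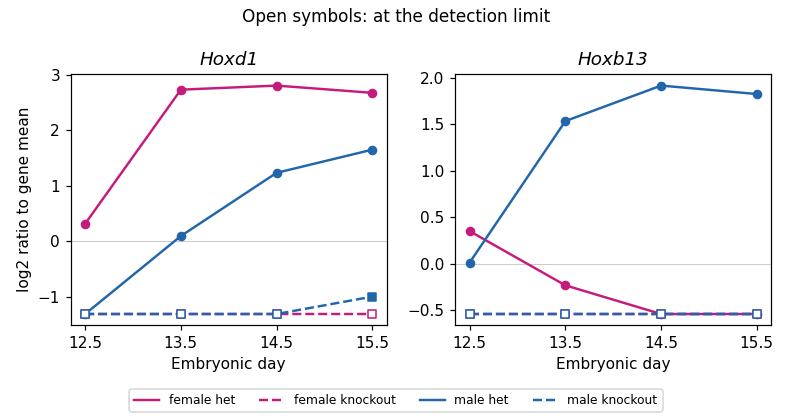
Hoxd1 (left) and Hoxb13 (right) against embryonic day in the 4 groups, as the log2 ratio to the gene's own mean; open symbols are at the detection limit, and lines at the limit overlie each other. Heterozygous females reach 2.81 for Hoxd1, and heterozygous males reach 1.92 for Hoxb13.

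Red blood cell markers were higher as well in knockout females, 8 of 8 tested with a median difference of 2.75, and 1 of 8 in males. Interstitial mesenchyme markers were higher for 6 of 11 in females and 7 of 11 in males. Whether these cells take part in the Hox differences was not tested. Of 8 HOX partners tested, 6 were higher in knockout females, including Meis1 (0.52) and Meis3 (0.55), and 4 in knockout males, including Meis1 (0.64) and Meis3 (0.74). Among the 5 upstream regulators, Cdx2 included, 3 were lower and 1 higher in knockout females, where 33.8% of all genes were called. Nr6a1, an orphan nuclear receptor gene, fell by 3.96 on the log2 scale. The caudal-type homeobox gene Cdx1, at the limit in 5 samples, fell by 1.33. Its relative Cdx2 was at the limit in 12 of the 16 samples, all knockouts among them, and passed the filter through the heterozygous samples. No difference is given and no test is read for it. In knockout males Nr6a1 fell by 2.10, and Gdf11, a secreted signal for hindquarter identity, rose in both sexes (0.51 and 0.68).

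Among the 20 chromatin regulators, 2 were higher and 3 lower in knockout females, and 2 were higher and 5 lower in knockout males. That is 25% and 35% called, near or below the 33.8% and 34.3% of all genes. The Polycomb genes Cbx7 (-0.77 and -2.17), Phc1 (-0.48 and -1.21) and Ezh1 (-0.63 and -0.92) were lower in both sexes. Other Polycomb genes, among them Cbx8, Phc2 and Ring1, had higher means in the knockouts of both sexes. Of the 20 differences, 6 were above 0 in females and 10 in males. Of the 11 flanking genes 1 was higher and 3 were lower in knockout females, and 3 were lower in knockout males. Evx1, next to Hoxa13, fell by 2.10 in knockout females, a lower bound because it was at the limit in all 4 of them. Skap2, on the other side of HoxA, fell by 1.11 in females and 0.96 in males. Skap1, which flanks HoxB, rose by 1.14 in females and fell by 2.73 in males.

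Change over the 4 days was described by a slope, the log2 change per day. The arrays of E14.5 and E15.5 had more probes at the detection limit than all earlier ones, and the part of this difference in the slopes was not tested. Averaged over the 4 groups, 8 of the 34 Hox genes fell with age and 2 rose, while 14.2% of all genes fell and 21.8% rose (36% called). All 8 that fell are HoxA, HoxB or HoxC genes with paralogue numbers up to 9: Hoxb4, Hoxb3, Hoxa7, Hoxb8, Hoxc5, Hoxb9, Hoxa2 and Hoxc6. Of these, Hoxb9 had slopes of -0.63 and -0.92 in heterozygous and knockout males and of 0.06 and 0.11 in the females, and its call was lost with any day after E12.5 left out. The slope of Hoxb3 was -0.54 ± 0.06 (SE, n = 16 samples, adjusted p = 0.000113), and it was the only call held under every alternative and every left-out day. A further Hoxb3 probe gave a slope of -0.07.

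Hoxb4, known for its action in blood stem cells, had the steepest fall of the called genes, with a slope of -0.69 ± 0.14 (SE, n = 16 samples, adjusted p = 0.0033). Its values were 0.60, 0.36, -1.33 and -0.86 in heterozygous females and 0.51, 0.98, -1.12 and 0.16 in heterozygous males. In the knockouts it read 2.12, 0.67, -0.34 and -0.77 in females and 0.91, 0.75, -1.42 and -1.22 in males. Both E12.5 and E13.5 samples were above both later samples in each of the 4 groups. The number of probes at the detection limit changed at the same step. The 2 genes counted as rising were Hoxd1 (0.45 per day) and Hoxd11 (0.25 per day). Hoxd1 was at the limit in all 4 female knockouts and in 3 male ones, so its mean slope comes mainly from the heterozygotes and no test is read from it. The Hoxd11 call was lost with any day but E13.5 left out and also without the filter. Leaving out 1 day gave 5 to 15 calls, the lowest without E15.5 and the highest without E13.5, and 6 without E12.5 or E14.5. Of all genes 11.2% were called without E15.5, 19.3% without E12.5 and 19.1% without E14.5. With the arrays as deposited, 6 members fell and 4 rose, and the share rising among all genes called went from 60.5% to 79.7%.

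Slopes within single groups depended on the fit. Array weights gave 0, 19, 16 and 12 calls in female heterozygotes, female knockouts, male heterozygotes and male knockouts. Of all genes they called 4.82%, 29.9%, 39.3% and 31% in that order. A fit of the compared groups only gave 0 calls in each, and 0 of all genes. The counts that follow are from the fit of all 16 samples without weights. In heterozygous females 1 Hox gene rose, against 6.44% of all genes (9.77% called in either direction). In knockout females 2 fell, against 1.03% (3.36% called). In heterozygous males 2 rose and 2 fell, against 10.7% and 5.82% (16.5% called), and in knockout males 2 fell, against 2.53% (5.82% called). The 2 that rose in heterozygous males were Hoxd1 and Hoxb13, from which no test is read. Hoxd13 read -0.46, -0.04, 0.20 and 1.39 in heterozygous females and 1.34, 0.65, -0.34 and -0.46 in knockout females. The males gave -0.46, -0.42, -0.38 and 0.66 in heterozygotes and -0.28, -0.46, -0.46 and -0.46 in knockouts, where -0.46 is the detection limit. The 2 female groups thus ran in opposite directions, with slopes of 0.58 ± 0.13 (SE, adjusted p = 0.0202) in heterozygotes and -0.64 ± 0.13 (SE, adjusted p = 0.0239) in knockouts. The knockout call was lost with any day left out and the heterozygous call with any day but E14.5 left out, and a further Hoxd13 probe was at the limit in 15 samples. The difference of the male and female slopes passed for 0 of 34 Hox genes (6.51% of all genes), and 7 had an unadjusted p under 0.05 in limma.

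**Figure D5:**
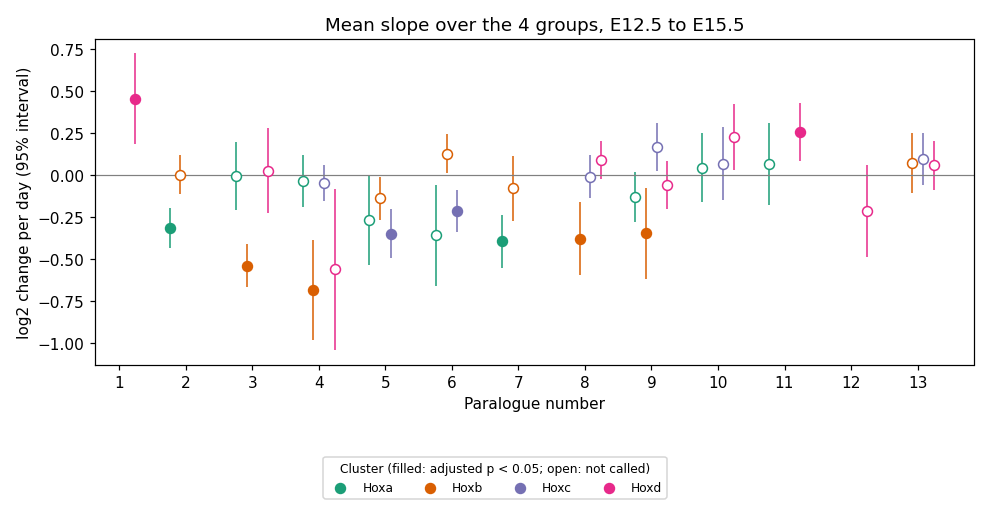
Mean slope over the 4 groups of each tested Hox gene, as log2 change per embryonic day with its 95% interval, by paralogue number and coloured by cluster; filled points passed the test. Hoxb4 (-0.69) and Hoxb3 (-0.54) lie lowest among the filled points. Hoxd1 (0.45), which was at the detection limit in most knockouts and from which no test is read, lies highest.

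Some genes had more than 1 probe, and the probes did not always go together. Of 10 tested members with several probes, the probes had the same sign in 7 for the sexes in heterozygotes, in 6 in knockouts, and in 5 and 6 for the knockout effect in females and males. Hoxa3 read 0.25 and 0.21 for male minus female with the probe used and -0.98 and -1.72 with a further probe that was never at the limit. Hoxb6 read -0.31 and -0.03 with the probe used and -0.78 and -1.0 with its further probe. Hoxb9 went the other way from these further probes. It read 0.60 and 0.15 with the probe used and 1.15 and 1.11 with a further probe that was never at the limit. Neighbouring genes of a Hox cluster can share transcripts, and which transcripts a probe reads was not tested.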

How the data were processed

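Agilent arrays with a single Cy3 label were read with Agilent Feature Extraction 9.5, per the submitters' processing notes. The values deposited by the authors are linear ratios per probe, and the scaling, the centring and the way replicates 1 and 2 were combined are not given in the sources used here. The deposited values show a lower limit for weak signals in each sample, which was recovered (tolerance 2e-04 on log2). Arrays were scaled to 1 common 75th percentile over 28373 probes never at the limit (shifts of -0.33 to 0.26), and all values were raised to a common limit before log2. Of 41267 probes, 93 controls were left out, and 32664 of the others have 1 gene symbol, 45 several and 8465 none. A gene with several probes was read by the one with the fewest values at the limit, then by the highest mean. Genes above the limit in at least 4 samples were kept.

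limma 3.58.1 in R 4.3.3 (lmFit and eBayes with a trend) was fitted to all 16 samples and 16581 genes, with Benjamini-Hochberg adjustment and calls at an adjusted p under 0.05. Knockout effects were fitted with each sex and day as a block, sex effects with each genotype and day as a block (6 residual degrees of freedom each), and slopes per group (8). The day pairs the samples: deviations from the group means correlated for samples of the same day, at 0.48 to 0.76 between genotypes and 0.19 to 0.64 between sexes, where at E12.5 the highest correlation with another day was larger (0.33 against 0.30 in heterozygotes and 0.47 against 0.19 in knockouts). Scripts were tested on simulated data. The number of arrays limits the precision.

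The Hox genes, the marker lists and the lists of partners, upstream and chromatin regulators and flanking genes were chosen with earlier results of these data known. Values in each sample are given for members called in at least 1 comparison with a difference of at least 1 on log2 (0.5 per day for a slope), and other genes are named from the lists, at most 4 per list by size or where a statement turns on them. Alternatives were another scaling, the filter, the limit, the probes, the block, the samples in the fit, array weights and each day left out. Promoter sequences are from RefSeq (GRCm38.p6).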

Additional observations from a re-analysis of the deposited data

Results flagged for a closer look

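In 11 of 123 groups of 4 samples examined, a single day stood apart from the other days of its group by Dixon's criterion, which chance alone does in about 1 in 20 groups. In female knockouts the E12.5 sample was the outlying one for 4 genes. Hoxa5 read 2.53 there (nearest other day 0.71), Hoxd3 read 0.92 (nearest -0.38), Hoxd9 read -0.0546 (nearest -0.70) and Hoxa11 read -0.55 (nearest 1.06). Hoxd1 read 0.31 in the E12.5 female heterozygote, where the nearest other day read 2.68. The E13.5 female heterozygote was low for Hoxb2, at -0.33 (nearest 0.07), and for Hoxd10, at -1.77 (nearest -0.54). The E15.5 male heterozygote was high for Hoxc8, at 0.0013 (nearest -0.86), for Hoxd11, at 0.71 (nearest -0.04), and for Hoxd13, at 0.66 (nearest -0.38). Hoxa9 read 0.21 in the E12.5 male knockout (nearest -0.26).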

How the results depend on the processing

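With 1 sample per group and day, the number of arrays limits the precision, and values at the detection limit bound Hoxd1 and Hoxb13. None of the 74 member values examined changed sign under the settings run for it (9 to 11) or with any day left out. With the arrays as deposited, 2 Hox genes were called for the knockout in females, 1 in males, 3 for the slope of female heterozygotes and 1 for that of female knockouts. Of all genes 13.9%, 11.7%, 18.5% and 2.77% were called in the same order. Median scaling left 6 for the knockout in males (29.5% of all genes). Without the day as a block there were 3 for the knockout in females (6.9% of all genes), 1 in males (6.25%) and 8 for the sexes in heterozygotes (16.1%). For the sexes in knockouts 10 were called. A fit of the compared groups only gave 4 for the knockout in females (21.6% of all genes). It gave 0 for the slope of each of the 4 groups, where it also called 0 of all genes tested. Quantile normalization gave 4 for the slope of female knockouts (5.33% of all genes), 5 for that of male knockouts (7.43%) and 1 for the difference of slopes between the sexes (6.8%). The mean of all probes gave 1 for the slope of female knockouts (3.85% of all genes). Array weights gave 0 for the slope of female heterozygotes, 19 for female knockouts, 16 for male heterozygotes, 12 for male knockouts, 17 for the mean slope and 6 for the difference of slopes. Of all genes 4.82%, 29.9%, 39.3%, 31%, 47.9% and 22.1% were called in the same order. The cause of these changes was not tested.

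Leaving out each day in turn gave 1 to 15 calls for the knockout in females, 0 to 10 in males and 0 to 1 for the difference of its effect between the sexes. It gave 8 to 15 for the sexes in heterozygotes and 11 to 15 in knockouts. For slopes it gave 0 to 1 in female heterozygotes, 0 to 3 in female knockouts, 0 to 5 in male heterozygotes, 0 to 3 in male knockouts, 5 to 15 for the mean slope and 0 to 4 for the difference between the sexes. The share of all genes called changed too. At the lowest Hox counts it was 9.35% for the knockout in females, 9.46% in males, 8.76% for the sexes in heterozygotes and 11.2% for the mean slope.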
